A study of Mus musculus with 39 samples.

Results

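The effect of ISRIB on lung monocytes of old naive mice was described from 10 of the 39 RNA sequencing libraries of the series, 5 from mice given ISRIB and 5 from mice given saline. The libraries were taken by their labels, and the genes were all those that passed a filter on low counts, 12170 of the 43430 in the deposited table. The labels give C57BL/6J as the strain and an age over 18 months, while the text of the series gives 18 to 24 months for the old mice. The cells were monocytes sorted from the lungs of mice that carried no bleomycin injury, and nothing in the labels names a genetic change in any group. The comparison asks how monocyte transcripts differ with the drug in old mice without bleomycin. The rest of the series holds 10 libraries of monocytes from young naive mice given ISRIB or saline, and 19 libraries of Siglec F-low alveolar macrophages from bleomycin-treated mice of both ages (bleomycin causes lung injury followed by fibrosis). For the bleomycin mice the series text gives daily intraperitoneal ISRIB from day 7 and a harvest at day 21. It gives no schedule for the naive mice. The labels name no sorting gates and do not say that the 5 libraries of a group came from separate animals, so the p-values below measure the spread between these libraries, which may in part be technical.

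The integrated stress response is a shared answer of cells to amino acid shortage, unfolded proteins, viral RNA and haem shortage. A family of kinases phosphorylates the translation factor eIF2, which then blocks its own exchange factor eIF2B, so that most protein synthesis slows while a few messages, among them that of the transcription factor ATF4, are translated better. ISRIB is a small molecule that binds eIF2B, stabilises its active form and so makes translation less sensitive to phosphorylated eIF2. Monocytes are short-lived blood phagocytes that enter tissues, where classical cells, marked by Ly6c2 and Ccr2, can become macrophages and nonclassical cells, marked by Nr4a1 and Cx3cr1, patrol vessels.

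No gene passed the test. The quasi-likelihood test of edgeR, with p-values adjusted over all genes by the Benjamini-Hochberg method, called 0 of 12170 genes at an adjusted p under 0.05 (0%), with 0.439 as the lowest adjusted value. Without adjustment 918 genes had a p under 0.05 (7.54% of those tested, against 608 that the threshold alone allows), 535 higher with ISRIB (4.4%) and 383 lower (3.15%). Other tools gave other counts: DESeq2 called 14 genes, 13 of them higher, limma voom called 0, and edgeR called 21 when no filter on low counts was applied and 17 when all 39 libraries shared a fit. Of the 24 genes called by DESeq2, by the unfiltered fit or by the fit of all libraries, 9 were called by each of these 3, and they were Nr4a3, Jdp2, Crem, Plaur, Phlpp1, Atg2a, Cfap43, Cyth1 and Sertad1. All 9 had a higher fitted level with ISRIB.

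The libraries limited what could be seen. The median standard error of a log2 fold change was 0.203 over all genes, so that the median 95% interval reached 0.42 to either side of the estimate. For 8662 of 12170 genes (71.2%) that interval lay wholly inside a 2-fold difference in either direction, and for the rest a difference of that size was not resolved. The fitted log2 fold changes themselves were centred close to 0, with a median of -0.01 and with 10% of genes below -0.39 and 10% above 0.38.

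Depth was alike in the old groups, with 6996727 to 11398384 counts per library in saline and 6931120 to 12054950 in ISRIB mice. Every pair of libraries within the old saline and old ISRIB groups differed by more than sampling noise (chi-square per degree of freedom of at least 12.4). Monocyte markers summed to 29100 to 31300 CPM (counts scaled to library size) in old saline and 26200 to 29800 in old ISRIB libraries. Red blood cell markers were at most 0.83 CPM in all 10, and B cell markers were 40.3 to 61.4 CPM in saline and 50.4 to 66.9 in ISRIB libraries. In these 10 libraries the first principal component held 25.4% of the variance, and ISRIB replicates 3, 4 and 5 lay at 20.3, 39.8 and 49.4 on it, while the other 7 libraries lay between -33.0 and 0.268. One young library, saline replicate 4, stood apart with 4595331 counts and 12324 detected genes. It enters the test of the old groups through the shared estimate of spread, and without it edgeR called 0 genes, and 1247 had a p under 0.05 before adjustment.

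Among genes whose higher group averaged 5 CPM or more, those with the smallest p-values and a higher level with ISRIB were, in order, Jdp2, Nr4a3, Phlpp1, Atg2a, Myo1c, Crem, Slc4a11 and Plaur, all at the adjusted p of 0.439. Jdp2, Nr4a3, Crem, Slc4a11 and Plaur were above the saline range in ISRIB replicates 3, 4 and 5 and within it in replicates 1 and 2. Because Nr4a3, and its relative Nr4a2 from the list of immediate early genes, orphan nuclear receptors that are switched on within minutes of a stimulus and are known targets of the cAMP-responsive factor CREB, had that order of libraries, the sequence just before their starts is shown with the short CREB site TGACG and its reverse complement CGTCA in capitals. The sequences are from RefSeq on GRCm38.p6, written 5′ to 3′ on the strand of the gene, and stop where the gene model of either RefSeq or GENCODE begins.
Nr4a3, chr4:48045055-48045152, plus strand: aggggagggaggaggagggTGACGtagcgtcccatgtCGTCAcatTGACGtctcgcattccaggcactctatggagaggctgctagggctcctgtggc
Nr4a2, chr2:57124004-57124253, minus strand: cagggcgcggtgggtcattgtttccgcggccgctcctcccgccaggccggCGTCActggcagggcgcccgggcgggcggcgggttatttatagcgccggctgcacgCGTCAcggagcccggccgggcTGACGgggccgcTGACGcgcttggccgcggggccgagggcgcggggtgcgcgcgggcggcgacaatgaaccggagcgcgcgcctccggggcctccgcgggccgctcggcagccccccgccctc
The stretch before Nr4a3 holds 3 copies over both strands and that before Nr4a2 holds 4. Over the 250 bases before the RefSeq start, TGACG or its reverse complement occurs in 5836 of 32851 promoter windows (17.8%). Counted by gene, it occurs in some window of 5347 of the 27025 genes that have one (19.8%). By the same count it occurs in 2 of the 6 higher genes that have a window and in 0 of the 5 lower genes that do. The full site TGACGTCA occurs in 1.55% of windows, in 1.77% of genes and in none of these 11 genes. The motif was chosen after the expression values were seen, and a match describes the letters only.

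Nr4a3 (GRCm38 chromosome 4, 48045153 to 48086447, plus strand) had the largest fitted difference of these genes together with Slc4a11. Its level was 4.58, 2.32, 0.577, 7.43 and 6.67 CPM in saline replicates 1 to 5 and 5.23, 4.8, 38.6, 189.7 and 259 CPM in ISRIB replicates 1 to 5. ISRIB replicates 3, 4 and 5 were above every saline library, and replicates 1 and 2 lay inside the saline range. The fitted log2 fold change was 4.52 ± 0.96 (SE), with a 95% interval from 2.52 to 6.51 and an edgeR adjusted p of 0.439, and DESeq2 gave an adjusted p of 0.0191. Nr4a2 followed the same libraries, with 129.5, 36.2, 52.2, 181 and 137 CPM in saline and 118, 104, 342, 512 and 417 CPM in ISRIB replicates 1 to 5. Its log2 fold change was 1.48 ± 0.45 (SE).

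Several basic leucine zipper factors, which bind DNA as pairs at AP-1 or cAMP response sites, were high in the same 3 ISRIB libraries. Jdp2, a repressor that pairs with JUN (chromosome 12, 85599027 to 85639878), was at 6.25, 20.3, 17.8, 22.3 and 16.2 CPM in saline and 17.9, 19.7, 51.99, 146 and 183 CPM in ISRIB libraries, a log2 fold change of 2.32 ± 0.48 (SE). Crem, which encodes both activators and the inducible repressor ICER of the cAMP pathway, was at 7.37, 6.29, 7.62, 24.5 and 16.02 CPM in saline and 13.99, 10.1, 49.1, 147 and 195 CPM in ISRIB libraries (log2 2.74 ± 0.64, SE). Fosl2, an AP-1 subunit, was at 401 to 959 CPM in saline libraries. In ISRIB replicates 1 to 5 it was at 648, 699, 1680, 2555 and 2384 CPM. For all of these genes the ISRIB and saline groups overlapped through ISRIB replicates 1 and 2 alone.

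Fos and Egr1, immediate early genes that respond to stimulation without new protein synthesis, did not follow that order. Fos was at 4113 to 5150 CPM in saline libraries and at 5209, 5214, 3283, 1906 and 1173 CPM in ISRIB replicates 1 to 5, so that replicates 3, 4 and 5, high for Nr4a3, were below every saline library for Fos. Egr1 was at 285 to 459 CPM in saline and at 430, 509, 238, 101 and 83.6 CPM in ISRIB libraries, again with replicates 3, 4 and 5 lowest. The fitted log2 fold changes were -0.44 ± 0.26 for Fos and -0.42 ± 0.35 for Egr1 (SE). Of the 34 immediate early genes tested, 9 were higher and 1 was lower at an unadjusted p under 0.05, against 4.4% higher and 3.15% lower over all genes, and the median log2 fold change was 0.25 against -0.01 over all genes. The count of 9 fell to 4 without ISRIB replicate 5, the lowest count when each of the 10 old libraries was left out, and reached 12 at most.

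**Figure D1:**
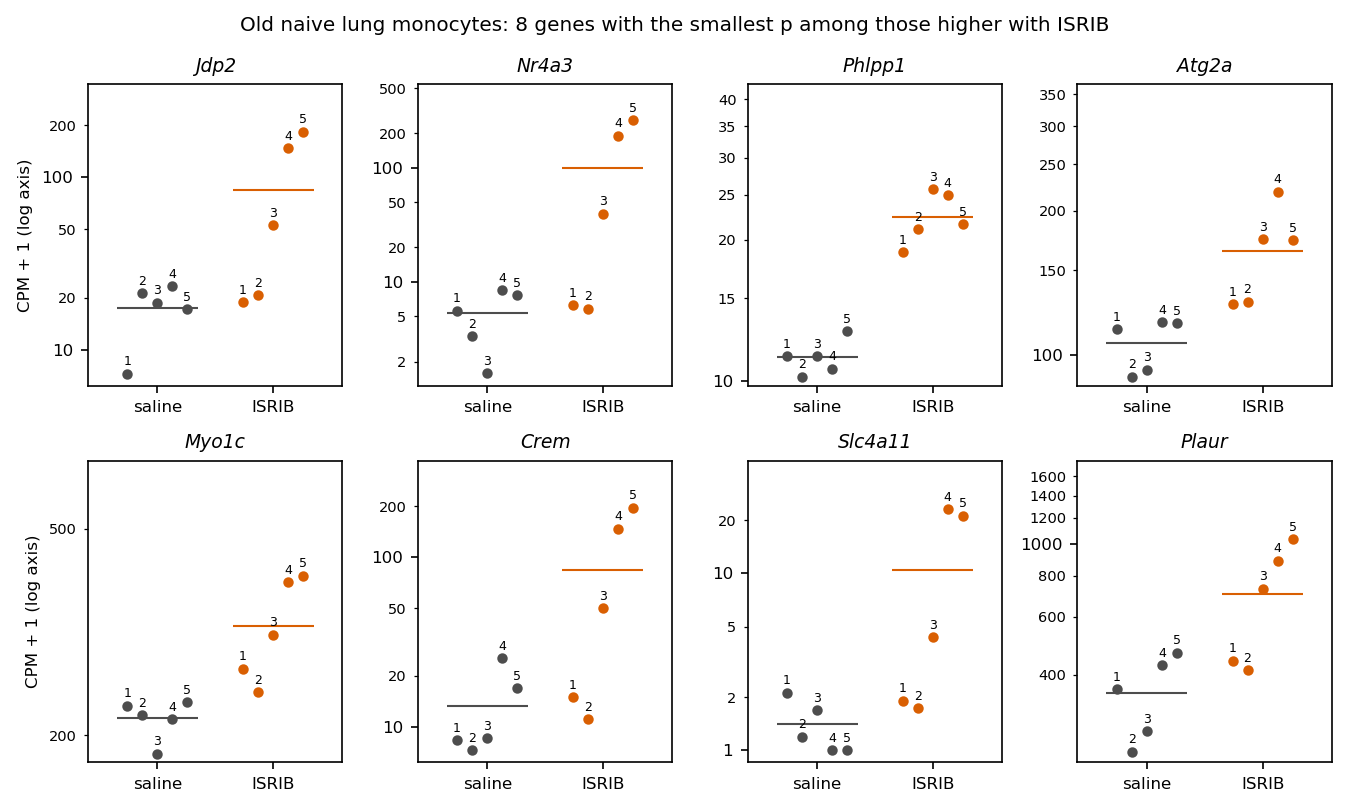
Level of the 8 genes with the smallest p among those higher with ISRIB, in each old monocyte library, as CPM + 1 on a log axis; grey points are saline and orange points are ISRIB libraries, numbers are replicate numbers and horizontal lines are group means. ISRIB replicates 3, 4 and 5 lie far above replicates 1 and 2 for Jdp2, Nr4a3, Crem and Slc4a11, whereas every ISRIB library lies above every saline library for Phlpp1, Atg2a and Myo1c.

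For 3 of the 8 genes every ISRIB library was above every saline library. Phlpp1, a phosphatase that removes an activating phosphate from AKT (chromosome 1, 106171752 to 106394250), was at 10.3, 9.2, 10.3, 9.61 and 11.8 CPM in saline and 17.9, 20.1, 24.7, 23.98 and 20.6 CPM in ISRIB libraries. Its log2 fold change was 1.07 ± 0.23 (SE), with a 95% interval from 0.59 to 1.56. Phlpp1 was also the 1 gene called when only the 10 old libraries were fitted, at an edgeR adjusted p of 0.0491. Atg2a, a lipid transfer protein of autophagosome formation, was at 89 to 116 CPM in saline and 127 to 218 CPM in ISRIB libraries (log2 0.64 ± 0.14, SE). Myo1c, a myosin that links membranes to actin, was at 183 to 230.4 CPM in saline and 241 to 405 CPM in ISRIB libraries (log2 0.59 ± 0.14, SE). Over all genes tested, 74 had every ISRIB library above every saline library (0.608%) and 97 had every ISRIB library below (0.797%). The 8 genes were picked by p from these same values, so separation follows in part from that choice.

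Plaur and Slc4a11 were the other 2 of the 8. Plaur, the urokinase receptor, which localises plasmin activity to the cell surface, was at 360.3, 232, 269, 427 and 465 CPM in saline and 441, 411, 729.9, 887 and 1033 CPM in ISRIB libraries, a log2 fold change of 0.997 ± 0.24 (SE). Replicates 3, 4 and 5 were above the saline range and replicates 1 and 2 were within it. Slc4a11, a membrane transporter, was at most 1.12 CPM in saline libraries and was at 0.91, 0.732, 3.35, 22.04 and 20.2 CPM in ISRIB libraries. Its fitted log2 fold change was 4.52 ± 1.07 (SE).

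The 8 genes with the smallest p among those lower with ISRIB had fitted log2 fold changes between -1.85 and -0.55. They were Cpsf4, a subunit of the polyadenylation machinery, B430306N03Rik, Ubxn2b, a cofactor of the p97 ATPase, Fam78b, Rab3il1, an exchange factor for RAB GTPases, Dbt, a subunit of the branched-chain ketoacid dehydrogenase, Dolpp1, a dolichol phosphatase of the N-glycosylation pathway, and Rbpj, the transcription factor of the Notch pathway. Ubxn2b was at 24.6, 24.6, 21.6, 20.5 and 23.1 CPM in saline and 16.4, 17.2, 14.5, 12.3 and 9.46 CPM in ISRIB libraries, a log2 fold change of -0.70 ± 0.18 (SE). Fam78b was at 14.7, 20.1, 18.01, 22.9 and 18.1 CPM in saline and 11.6, 10.7, 8.93, 9.48 and 5.59 CPM in ISRIB libraries, a log2 fold change of -1.01 ± 0.26 (SE). Neither gene overlapped between the groups, and neither did B430306N03Rik or Dolpp1, the latter with 18.9 to 27.5 CPM in saline and 12.2 to 18.6 in ISRIB libraries. Over all genes tested, 97 of 12170 had every ISRIB library below every saline library (0.797%). The 8 genes were picked by p from these same values, so separation follows in part from that choice.

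Rab3il1 had the lowest fitted value of the 8, -1.85 ± 0.48 (SE), and its saline libraries were spread widely. They were at 3.02, 27.2, 10.04, 14.5 and 3.97 CPM, and the ISRIB libraries were at 4.78, 3.25, 1.74, 2.97 and 3.57 CPM. Saline replicates 1 and 5 lay within the ISRIB range. Cpsf4, Dbt and Rbpj overlapped through 1 ISRIB library each, with log2 fold changes of -0.57 ± 0.14, -0.73 ± 0.20 and -0.55 ± 0.15 (SE).

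**Figure D2:**
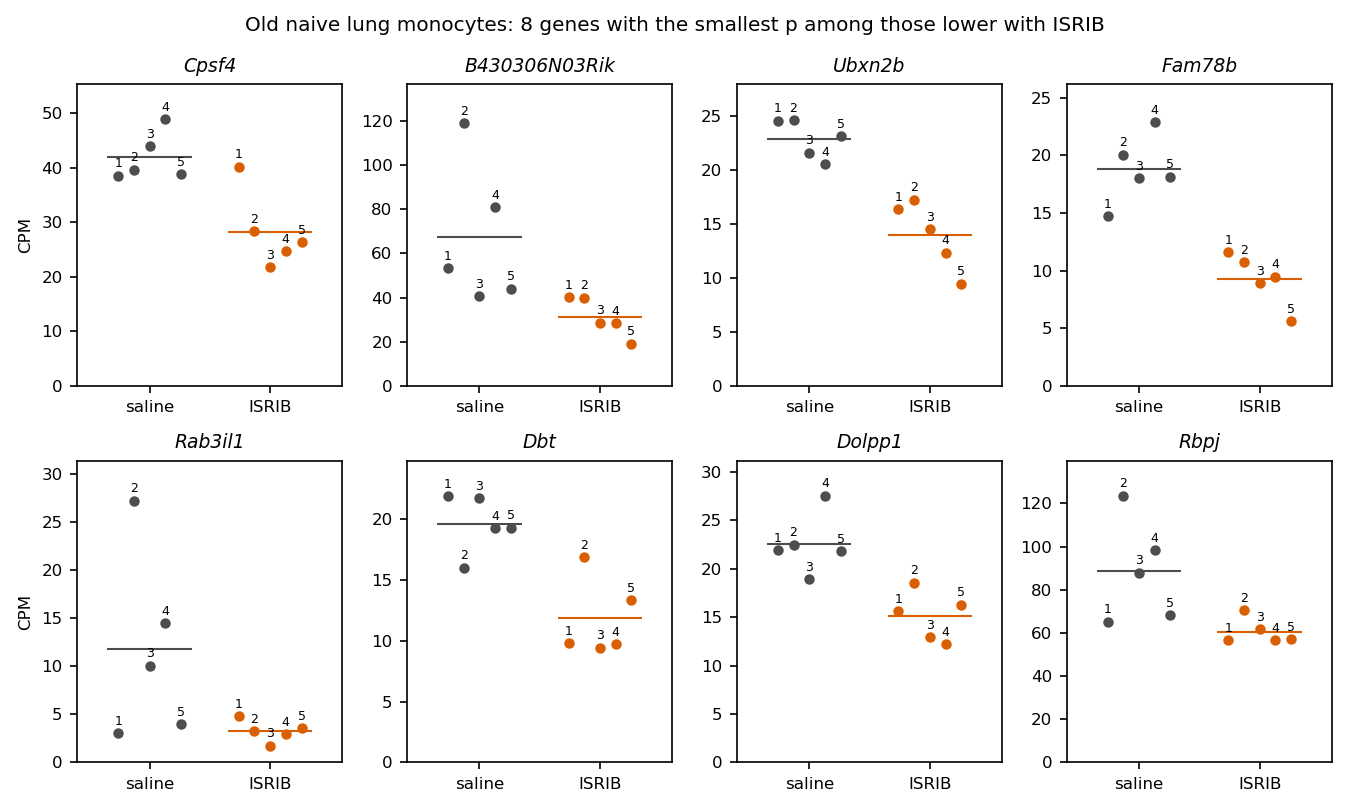
Level of the 8 genes with the smallest p among those lower with ISRIB, in each old monocyte library, in CPM on a linear axis from 0; colours, numbers and lines are as for the higher genes. Every ISRIB library lies below every saline library for Ubxn2b, Fam78b, Dolpp1 and B430306N03Rik, and Rab3il1 is spread from 3.02 to 27.2 CPM within saline.

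The pathway that ISRIB acts on was described from its sensors to its targets. The sensors, the eIF2 kinases, had 95% intervals that included 0. The log2 fold change was -0.01 ± 0.10 for Eif2ak1 (the haem sensor HRI), -0.05 ± 0.14 for Eif2ak2 (the RNA sensor PKR), -0.01 ± 0.18 for Eif2ak3 (the unfolded protein sensor PERK) and -0.26 ± 0.15 for Eif2ak4 (the amino acid sensor GCN2), each with its SE. For each kinase the 95% interval excluded a 2-fold difference in either direction. Impact, which inhibits GCN2, was at 25.4 to 38.9 CPM in saline and at 28.7, 30.1, 40.5, 65.7 and 49.96 CPM in ISRIB libraries, a log2 fold change of 0.43 ± 0.20 (SE, edgeR adjusted p 0.631). Ppp1r15a, the inducible subunit that directs a phosphatase to eIF2, was at 149 to 267 CPM in saline and at 106 to 250 CPM in ISRIB libraries, with replicates 4 and 5 lowest.

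The drug's target, eIF2B, is built from 5 subunits. All 5 had a lower fitted level with ISRIB, as had 6344 of the 12170 genes tested. The log2 fold changes of the 5 ran from -0.31 (Eif2b4) to -0.20 (Eif2b5). Their standard errors ran from 0.14 to 0.27 and their edgeR adjusted p-values from 0.708 to 0.854. Eif2b1 was at 17.7 to 25.98 CPM in saline and 14.05 to 19.7 in ISRIB libraries, and the groups overlapped for each subunit. Over the 12 subunits of eIF2B and eIF2, 0 had an unadjusted p under 0.05, against 4.4% higher and 3.15% lower over all genes. Their median log2 fold change was -0.17, and was -0.08 without saline replicate 3 and -0.19 without ISRIB replicate 5. Without saline replicate 2, 1 of the 12 was higher and 2 were lower, when 414 and 279 of 12369 were over all genes.

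Downstream, Atf4 mRNA was at 149, 164, 159, 212 and 201 CPM in saline and at 176, 197, 278, 311 and 382 CPM in ISRIB replicates 1 to 5, and replicates 3, 4 and 5 were above every saline library. The log2 fold change was 0.60 ± 0.20 (SE), with a 95% interval from 0.20 to 1.01 and an edgeR adjusted p of 0.487. Ddit3, which encodes the stress factor CHOP, was at 6.88 to 12.4 CPM in saline and 10.4, 8.22, 14.02, 17.9 and 21.3 CPM in ISRIB libraries (log2 0.64 ± 0.24, SE). ATF4 is regulated at translation, which these mRNA levels do not measure.

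Of 34 integrated stress response and ATF4 target genes tested, 5 were higher and 0 were lower at an unadjusted p under 0.05, against 4.4% and 3.15% over all genes, and the median log2 fold change was 0.04. The 5 were Atf4, Ddit3, Cebpb, Slc7a11 and Vegfa. Slc7a11, the cystine importer, was at 2.43 to 9.36 CPM in saline and at 3.30, 13.8, 5.71, 27.9 and 43.9 CPM in ISRIB libraries, and Vegfa, a growth factor for vessels, was at 6.88 to 62.3 CPM in saline and at 27.5, 21.1, 135, 201 and 203 CPM in ISRIB libraries. Cebpb, a factor of myeloid cells that is also induced by stress, was at 680 to 1103 CPM in saline and at 974 to 1318 CPM in ISRIB libraries. The count of 5 was between 3 and 8 when each old library was left out, and was 3 without ISRIB replicate 5.

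Several other targets of ATF4 were near the limit of detection. Asns, asparagine synthetase, was at most 2.17 CPM in any of the 10 libraries, and Trib3, Chac1, Gdf15 and the senescence marker Cdkn2a did not pass the filter. Sesn2, an inhibitor of mTORC1 signalling, was at 28.4 to 41.5 CPM in saline and at 30.3, 25.4, 33.6, 53.8 and 78.97 CPM in ISRIB libraries. Of 22 aminoacyl-tRNA synthetases, the enzymes that charge tRNAs, 0 were higher and 4 were lower at an unadjusted p under 0.05, against 4.4% and 3.15% over all genes, with a median log2 fold change of -0.11. Without young saline replicate 4 the lower synthetases were 7, while over all genes the lower ones rose from 383 of 12170 to 522 of 12365. The first synthetase by p was Dars, at 56.6 to 76.7 CPM in saline and 44.8 to 53.3 CPM in ISRIB libraries. Its groups did not overlap, with every ISRIB library lower, as for 0.797% of all genes. Aars was at 47.5 to 76.6 CPM in saline and 41.8 to 53.7 in ISRIB libraries, a log2 fold change of -0.31 ± 0.15 (SE).

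**Figure D3:**
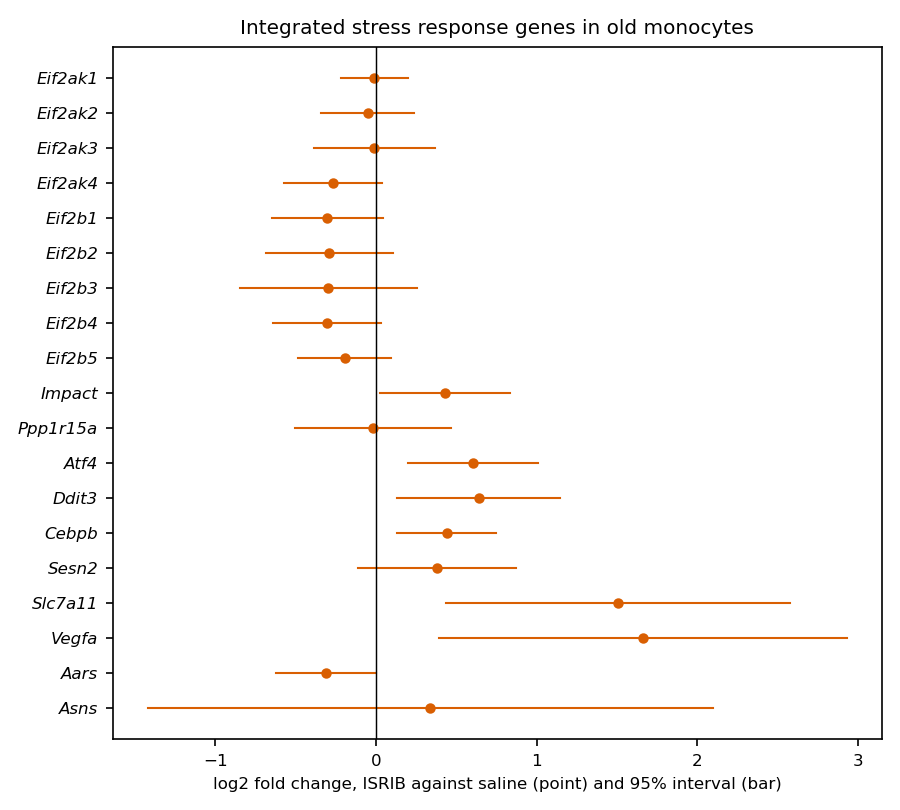
Log2 fold change of ISRIB against saline in old monocytes (points) and its 95% interval (bars) for the kinases, the eIF2B subunits, regulators and targets of the integrated stress response. Intervals of the 4 kinases and of Ppp1r15a reach across 0, those of Atf4, Ddit3, Cebpb, Slc7a11 and Vegfa lie above 0 before adjustment, and that of Asns is the widest.

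Protein production and breakdown outside this pathway gave small medians. Of 76 mitochondrial ribosomal protein genes, 0 were higher and 5 lower at an unadjusted p under 0.05, against 4.4% and 3.15% over all genes, with a median log2 fold change of -0.19. The 5 became 2 without saline replicate 3 or ISRIB replicate 5, 3 without saline replicate 4, ISRIB replicate 3 or ISRIB replicate 4, and 8 without ISRIB replicate 2 or young saline replicate 4. Over all genes, 485 of 12379 and 522 of 12365 were lower in the last 2 of these fits. Mrps5, the first by p, was at 12.9 to 15.97 CPM in saline and 8.38 to 11.2 CPM in ISRIB libraries. Its groups did not overlap, with every ISRIB library lower, as for 0.797% of all genes. Of 42 proteasome genes 0 were higher and 1 lower, and that gene, Psmd14, a deubiquitinating subunit of the proteasome lid, was at 41.4 to 56.6 CPM in saline and 28.04 to 42.8 in ISRIB libraries. The lower proteasome genes were 6 without ISRIB replicate 1, when 594 of 12373 genes were lower, and 4 without young saline replicate 4. Of the 42, 38 had a fitted value below 0, against 6344 of 12170 over all genes. Of 83 cytosolic ribosomal protein genes none reached an unadjusted p under 0.05, and their median was 0.13. Of the 83, 78 had a fitted value above 0, against 5826 of 12170 over all genes. The median was 0.052 without ISRIB replicate 5. Without young saline replicate 4, 6 were higher, when 725 of 12365 genes were. Hspa5, the main chaperone of the endoplasmic reticulum, had a log2 fold change of 0.06 ± 0.20 (SE).

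Inflammatory genes were mixed. Of 33 cytokine and NF-kB feedback genes, 6 were higher and 2 lower at an unadjusted p under 0.05, against 4.4% and 3.15% over all genes. Their median log2 fold change was 0.20, which ran from 0.06 without saline replicate 3 to 0.26 without saline replicate 1. Cd83, a maturation marker of antigen-presenting cells, was at 30.2, 7.26, 8.54, 43.3 and 73.6 CPM in saline and 16.7, 23.7, 226, 333 and 299 CPM in ISRIB libraries, high again in replicates 3, 4 and 5. Nlrp3, the inflammasome sensor, was at 138 to 279 CPM in saline and 194, 198, 385, 488 and 447 CPM in ISRIB libraries. Nfkb2, a subunit of noncanonical NF-kB, was at 153 to 213 CPM in saline and 214 to 289 CPM in ISRIB libraries (log2 0.45 ± 0.14, SE). Its groups did not overlap, with every ISRIB library higher, as for 0.608% of all genes.

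A pair of chemokines had lower fitted levels with ISRIB. Ccl2, which recruits CCR2-bearing monocytes, was at 53.7, 97.5, 68.5, 106 and 85.9 CPM in saline and 79.96, 47.3, 48.1, 35.6 and 30.1 CPM in ISRIB libraries, a log2 fold change of -0.77 ± 0.22 (SE). Ccl3 was at 21.9 to 41.2 CPM in saline and 35.6, 26.3, 18.4, 18.1 and 11.5 CPM in ISRIB libraries (log2 -0.63 ± 0.21, SE). Both were lowest in ISRIB replicate 5. Of the inflammatory list, the 6 higher genes became 4 without ISRIB replicate 4.

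Subset markers were read next. In bulk samples fewer cells of a type and less RNA per cell cannot be told apart. Ccr2, the chemokine receptor of classical monocytes, was at 2321, 3908, 2614, 2667 and 2109 CPM in saline and 1952, 2030.0, 1689, 1500.0 and 1631 CPM in ISRIB libraries. Every ISRIB library was below every saline library, as for 0.797% of all genes. The log2 fold change of Ccr2 was -0.63 ± 0.25 (SE, edgeR adjusted p 0.562). F13a1, coagulation factor XIII, was at 1840 to 3040 CPM in saline and 1347 to 1967 CPM in ISRIB libraries (log2 -0.62 ± 0.21, SE), and Ms4a4c was at 313 to 420.2 and 237 to 340 CPM (log2 -0.36 ± 0.13, SE).

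Ly6c2 was at 418 to 672 CPM in saline and 328 to 476 CPM in ISRIB libraries, a log2 fold change of -0.39 ± 0.19 (SE). Not every gene of the classical list was lower: Thbs1, thrombospondin 1, was at 1357, 1043, 1336, 4256 and 2138 CPM in saline and 1631, 1820, 4638, 8294 and 12430 CPM in ISRIB libraries. Klf4, a factor of monocyte differentiation on the same list, was at 248 to 616 CPM in saline and 460.0 to 940.0 CPM in ISRIB libraries. Cd14, the lipopolysaccharide co-receptor, is a general monocyte marker outside that list. It was at 483 to 1153 CPM in saline and 685, 775, 1247, 1769 and 2534 CPM in ISRIB libraries. Of 29 classical genes, 2 were higher and 3 lower at an unadjusted p under 0.05, against 4.4% and 3.15% over all genes, and the median was -0.12.

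Of 30 nonclassical genes, 2 were higher and 0 lower at an unadjusted p under 0.05, against 4.4% and 3.15% over all genes. The 2 became 5 without saline replicate 1. The median of the 30 was 0.29, and was 0.13 without saline replicate 2 and 0.43 without saline replicate 1, and 24 of the 30 had a fitted value above 0. The 2 with all libraries were Stap1, a signalling adaptor, at 20.4 to 53.5 CPM in saline and 40.04, 40.8, 74.7, 117 and 102 CPM in ISRIB libraries, and Cebpb. Of the defining genes of the subset, Nr4a1 had a log2 fold change of 0.35 ± 0.27 and Cx3cr1 one of -0.04 ± 0.23 (SE). The per-library medians of the nonclassical list were -0.45 to 0.49 in saline and 0.0022 to 0.50 in ISRIB libraries, so the groups overlapped.

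The summed level of dendritic cell markers was 199, 165, 158, 131 and 220 CPM in saline and 158, 158, 240, 243 and 248 CPM in ISRIB replicates 1 to 5, and was highest in ISRIB replicates 3, 4 and 5. Of 11 tested markers 4 had a fitted value above 0 and 7 below it, and the median was -0.09. At an unadjusted p under 0.05, 2 were higher and 0 lower, against 4.4% and 3.15% over all genes. The 2 were Flt3, a growth factor receptor of dendritic cells and their precursors, at 31.1 to 54.6 CPM in saline and 38.4, 53.9, 84.7, 99.2 and 126 CPM in ISRIB libraries, and Ccr7, the receptor for homing to lymph nodes, at 3.002 to 22.97 CPM and 7.96, 13.99, 21.96, 42.1 and 37.1 CPM. Of other dendritic cell markers, Xcr1 was at most 1.34, Zbtb46 at most 3.02 and Clec9a at most 5.53 CPM in all libraries. Markers of the list that are not named here are not given by value. The part of dendritic cells in the pattern of replicates 3, 4 and 5 was not tested.

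T cell markers summed to 35.7 to 173 CPM in saline and 71.1 to 179 CPM in ISRIB libraries, and alveolar macrophage markers to 686 to 1430 and 645 to 1070 CPM. The mitochondrial share of counts was 1.07% to 1.57% in saline and 1.03% to 1.43% in ISRIB libraries.

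Metabolic and antioxidant genes were next. Of 29 genes of sterol and fatty acid synthesis, 9 were higher and 1 lower at an unadjusted p under 0.05, against 4.4% and 3.15% over all genes, and the median was 0.13. Msmo1, a sterol oxidase, was at 32.5 to 41.5 CPM in saline and 34.7, 40.1, 55.6, 63.5 and 63.8 CPM in ISRIB libraries. Scd1, a fatty acid desaturase, was at 2.36 to 7.93 and 5.25 to 16.1 CPM. The 9 fell to 2 without ISRIB replicate 5.

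Of 18 genes of the NRF2 antioxidant response, 4 were higher and 2 lower at an unadjusted p under 0.05, against 4.4% and 3.15% over all genes. Their median was 0.02, and the 4 fell to 0 without ISRIB replicate 5. Srxn1, sulfiredoxin, was at 7.75 to 12.8 CPM in saline and 1.93, 10.7, 18.6, 50.02 and 87.5 CPM in ISRIB libraries. Nfe2l2, which encodes NRF2, was at 208 to 267 and 236, 225, 319.7, 444 and 514 CPM, and Keap1, its inhibitor, was at 44.7 to 70.3 and 62.1, 42.2, 37.2, 37.3 and 26.4 CPM. Replicate 5 was highest for Srxn1 and Nfe2l2 and lowest for Keap1.

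Slc16a3, which exports lactate, was at 91.03 to 161 CPM in saline and 138, 167, 230, 322 and 479 CPM in ISRIB libraries, a log2 fold change of 1.05 ± 0.27 (SE). Runx3, a transcription factor of leukocytes, was at 65.4 to 112 and 90.3, 85.7, 140.3, 225 and 375 CPM (log2 1.09 ± 0.28, SE). Cdkn1a, the cell cycle inhibitor p21, was at 143 to 337 and 255, 257, 490.5, 557 and 666 CPM (log2 0.99 ± 0.28, SE). These 3 genes were highest in ISRIB replicate 5 and within the saline range in replicates 1 and 2, except Slc16a3 in replicate 2.

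Per1, a repressor of the circadian clock, was at 270, 355, 220, 498 and 610 CPM in saline and 512, 540, 768, 762 and 562 CPM in ISRIB libraries (log2 0.69 ± 0.20, SE), and Nfil3, a clock-controlled factor, was at 240 to 449 and 363 to 598 CPM. Of 15 clock genes 3 were higher and 0 lower at an unadjusted p under 0.05, against 4.4% and 3.15% over all genes, and their median was 0.37. The 3 became 1 without saline replicate 1 or ISRIB replicate 4, and 5 without saline replicate 5. The list median ran from -0.12 to 0.30 in saline and from 0.21 to 0.49 in ISRIB libraries. The labels do not give the time of day of collection.

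Cxcr4, the receptor that retains cells in marrow and lung, was at 153, 182, 207, 341 and 484 CPM in saline and 368 to 468 CPM in ISRIB libraries (log2 0.67 ± 0.26, SE). Of 15 complement genes 0 were higher and 2 lower at an unadjusted p under 0.05, against 4.4% and 3.15% over all genes, C3 at 1122 to 2214 and 1030.0 to 1218 CPM and Cfp, properdin, at 110 to 208 and 104 to 127 CPM. The median of the complement list was -0.48, and ran from -0.58 without saline replicate 5 to -0.19 without saline replicate 3.

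Genes induced by interferon gamma were split within the ISRIB group. For the 17 tested members of the list of GTPases and their partners, the per-library median relative to the saline mean was -0.13 to 0.11 in saline libraries, 1.28 in ISRIB replicate 1 and -0.35, -0.45, -0.56 and -0.89 in ISRIB replicates 2 to 5. Gbp2, a GTPase that attacks the membranes of intracellular pathogens, was at 74.1 to 124 CPM in saline and at 436 CPM in ISRIB replicate 1 against 53.8 to 99.99 CPM in the other 4. None of the 17 had an unadjusted p under 0.05. Without ISRIB replicate 1 the list median was -0.61 and 7 of the 17 were lower at an unadjusted p under 0.05. Over all genes 594 of 12373 were lower in that fit. The fit is singled out because replicate 1 was seen to be high for this list, so a lower median follows from the choice.

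**Figure D4:**
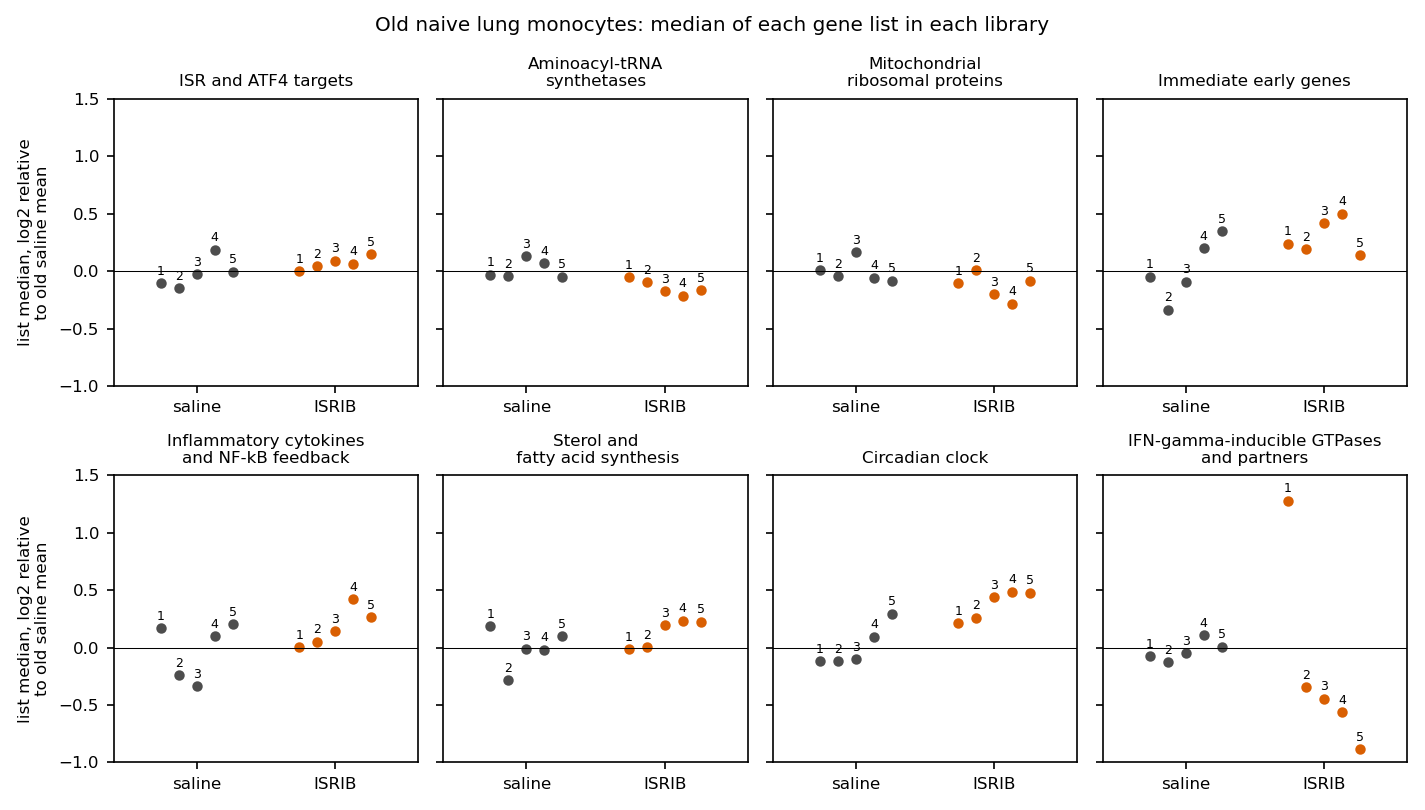
Median over each gene list of log2(CPM + 1) in each old library, relative to the mean of the old saline libraries; grey points are saline, orange points ISRIB, and numbers are replicate numbers. The interferon gamma list is at 1.28 in ISRIB replicate 1 and below 0 in the other ISRIB libraries, and the medians of the stress response list lie between -0.15 and 0.19 in all 10.

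The same contrast in young naive monocytes, from other libraries, gave other values for these genes. Per the labels these mice were C57BL/6J aged 8 to 12 weeks, and per the series text 3 to 5 months. In young monocytes edgeR called 0 of 12170 genes (0%), while 809 had a p under 0.05 before adjustment (6.65%, of which 3.62% were higher and 3.02% lower). Nr4a3 averaged 11.6 ± 14.2 CPM in young saline and 6.75 ± 5.31 CPM in young ISRIB libraries (SD, n = 5 each), a log2 fold change of -0.83 ± 0.90 (SE). Crem and Jdp2 had young values of -0.78 ± 0.62 and -0.67 ± 0.47 (SE), both below 0 where the old values were above it. Young saline replicate 4, the library that stood apart in depth, is part of these young values. On the first principal component of all monocyte libraries it lay at 122, and the others lay between -17.4 and 0.996. For Nr4a3, Crem and Jdp2 it was at 4.35, 16.1 and 29.6 CPM, inside the range of the other young saline libraries. Young saline replicate 1 was the highest young saline library for all 3, at 36.5, 44.65 and 41.3 CPM. The next highest were at 10.02, 25.5 and 29.6 CPM. The negative young values include replicate 1, and young fold changes without either library are not given.

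The difference between the ages was tested for every gene in the same fit, and edgeR called 0 of 12170 (0%), while 865 had a p under 0.05 before adjustment (7.11%, of which 3.94% were positive and 3.16% negative) and the lowest adjusted value was 0.478. The unfiltered fit called 12 and the fit of all 39 libraries called 22. For Nr4a3 the ISRIB effect was 5.34 ± 1.30 (SE) higher in old than in young monocytes on the log2 scale, for Crem 3.52 ± 0.88 and for Jdp2 2.99 ± 0.67. Nr4a3, Crem and Jdp2 were named for their small p in old monocytes, and the difference uses the same old values. Its size for them therefore follows in part from that choice and is no separate support. The difference for these genes also includes young saline replicate 1, the highest young saline library for all 3. Atf4 differed by 0.82 ± 0.28 (SE), with a young value of -0.22 ± 0.19. For Atf4, young saline replicate 4 was at 308 CPM, above the other young saline libraries at 161 to 226 CPM. The difference between the ages includes this library and is not given without it. Phlpp1 had a young value of 0.00 ± 0.23 (SE), and its young saline level of 20.8 ± 4.61 CPM (SD, n = 5) was at the level of the old ISRIB libraries.

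Fam78b had a log2 fold change of -1.01 ± 0.26 in old and -0.93 ± 0.26 in young monocytes (SE), and the difference was -0.09 ± 0.37 with a 95% interval from -0.85 to 0.68. Of the 918 genes at an unadjusted p under 0.05 in old monocytes, 69 were also under it in young monocytes (7.52% of the old and 8.53% of the young genes), 33 of them with the same sign. Since 6.65% of all genes were under it in young monocytes, the share among the old genes was near the background.

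**Figure D5:**
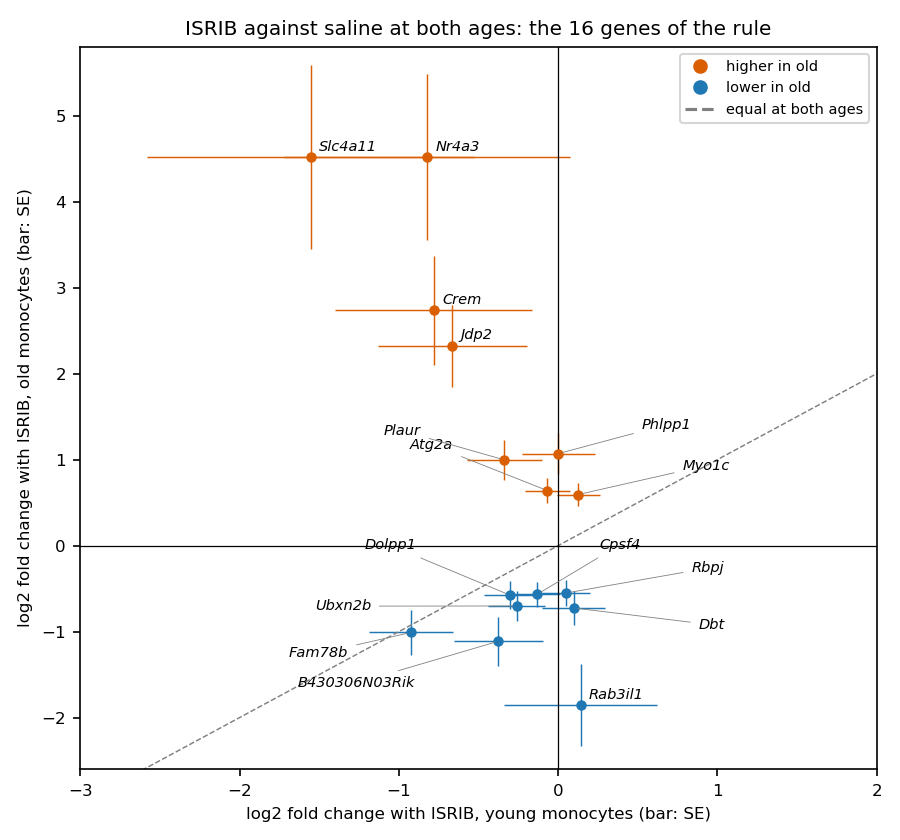
Log2 fold change of ISRIB against saline in young (horizontal axis) and old (vertical axis) naive monocytes for the 16 genes described by the smallest p in old mice, with bars of 1 SE; the dashed line marks equal values. Nr4a3, Slc4a11, Crem and Jdp2 lie far above the line with young values below 0, and Fam78b lies close to it. The choice of genes by their old values favours distance from the line.

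In macrophages of old mice after bleomycin, edgeR called 0 of 12171 genes (0%), while 1112 had a p under 0.05 before adjustment (9.14%, of which 3.99% were higher and 5.14% lower). DESeq2 called 43, edgeR 76 with the replicate number as a block and 220 with no filter on low counts. Cell type and injury go together there, and their parts cannot be told apart. The macrophage log2 fold changes were -1.19 ± 0.46 for Nr4a3, -1.33 ± 0.32 for Nr4a2, -0.27 ± 0.17 for Crem, 0.26 ± 0.34 for Jdp2 and 0.14 ± 0.11 for Atf4 (SE). The test of the difference between old monocytes and old macrophages called 0 of 13587 genes (0%), while 1066 had a p under 0.05 before adjustment (7.85%, of which 5% were positive and 2.84% negative). The lowest adjusted value was 0.0662. DESeq2 called 51 and edgeR 17 with the replicate number as a block and 29 with no filter.

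Single libraries differed in how far they stood from the rest. Among 9178 genes of at least 5 CPM, ISRIB replicates 4 and 5 had 189 and 194 genes at least 2-fold above the median of the other 9 old libraries, ISRIB replicates 1, 2 and 3 had 41, 8 and 49, and saline libraries had 24 to 91. Genes at least 2-fold below were 42, 20, 43, 95 and 163 in ISRIB replicates 1 to 5 and 40 to 187 in saline libraries. Leaving out ISRIB replicate 5 lowered the 535 higher genes at an unadjusted p under 0.05 to 309, and over all 10 libraries left out in turn they ran from 309 to 681.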

How the data were processed

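RNA was isolated with the PicoPure kit and libraries were made from 3 ng of total RNA with the NEBNext Ultra kit and its polyA module, per the labels' protocols. The submitters' processing notes name bcl2fastq 2.19.1, FastQC, Trimmomatic 0.36, STAR 2.6.0, HTSeq 0.11.2 and the build mm10. The strand setting and annotation used by the authors are not given in these sources, so overlapping antisense genes cannot be told apart. The authors deposited whole-number counts per gene for 39 libraries, per the file headers. Of 43430 gene IDs, 42546 (98%) were matched to GENCODE names, and the rest held at most 0.133% of a library's counts.

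All 20 monocyte libraries were fitted together by edgeR 4.0.16 (R 4.3.3) with TMM scaling, filterByExpr (minimum count 10, minimum total 15), the quasi-likelihood test and Benjamini-Hochberg adjustment over all genes tested, at a threshold of 0.05. Macrophages were fitted apart, and the comparison of monocytes with macrophages used both kinds of library. The procedure was tested on simulated data. DESeq2 1.42.0, limma 3.58.1 (voom, with and without quality weights), other scalings and filters, the replicate number as a block, other sets of libraries and leaving out each library were tried. Named genes were up to 8 per direction with the smallest p among genes whose higher group averaged 5 CPM or more, up to 6 members of each list by p, a core list and cell markers. The members and the gene lists were chosen with earlier results of these data known. The 35 programme and 15 marker lists held 831 symbols, of which 825 were matched. CPM values are scaled by TMM library sizes and marker sums by library totals, and list medians per library use log2(CPM + 1). Precision is limited by 5 libraries per group.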

Additional observations from a re-analysis of the deposited data

Results flagged for a closer look

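In 11 cases 1 library lay apart from the other 4 of its group, by a gap above 0.71 of the group's whole range (Dixon's 95% limit for 5 values). Chance flags about 1 in 20 groups, and 5 of 148 groups of gene values and 6 of 70 groups of list medians were past the limit. Eif2b2 was at 73.5 CPM in old saline replicate 3, against 35.4 to 46.1 in the other 4. Hspa5 was at 1183 CPM in old saline replicate 4, against 543 to 711. Eif2ak1 was at 136 CPM in old saline replicate 3, against 112 to 118, and at 99.1 CPM in old ISRIB replicate 3, where the next lowest was 123.

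ISRIB replicate 1 stood apart for the interferon gamma and MHC class I lists. Gbp2 was at 436 CPM there, the median of the interferon gamma list was at 1.28 and that of the MHC class I list at 0.327 on the log2 scale relative to old saline, while the other ISRIB libraries were at most -0.346 and -0.195 for these lists. For the type I interferon list ISRIB replicate 1 was at 0.215, beside 0.214 in ISRIB replicate 3. Replicate 1 was lowest for chemokine receptors, at -0.165. ISRIB replicate 5 was highest for cytosolic ribosomal protein genes, at 0.401, ISRIB replicate 4 was lowest for the eIF2B and eIF2 subunits, at -0.177, and saline replicate 3 was lowest for the LXR and cholesterol efflux list, at -0.132. The causes were not tested.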

How the results depend on the processing

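The count of 0 called genes in old monocytes depended on the method. It was 14 with DESeq2, 21 with no filter on low counts, 17 with all 39 libraries in 1 fit and 1 with only the groups compared, and 0 with the other scalings, filters and limma voom. Over 20 monocyte libraries left out in turn it ran from 0 to 1, with Phlpp1 called without young ISRIB replicate 5 and Pdcd4 without old saline replicate 5. The difference between old and young gave 12 genes with no filter and 22 with all 39 libraries. Old macrophages gave 43 with DESeq2, 27 with quality weights, 220 with no filter, 1 with all 39 libraries, and 0 to 30 with 1 library left out (30 without saline replicate 3, 16 without saline replicate 5, 1 without ISRIB replicate 1). The difference between old monocytes and macrophages gave 51 with DESeq2, 29 with no filter, 1 with only the groups compared, and 0 to 38 with 1 library left out (38 without monocyte ISRIB replicate 2, 21 without monocyte ISRIB replicate 1, 13 and 7 without monocyte saline replicates 5 and 4, 1 without macrophage saline replicate 3 and 1 without macrophage ISRIB replicate 1). The cause was not tested.

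Replicate numbers did not pair the old monocyte libraries: same-numbered libraries correlated at -0.0711 to 0.0596, and 0 of 5 correlated best with their own number. In old macrophages same-numbered libraries correlated at -0.0832 to 0.165, and 3 of 5 correlated best with their own number. With the replicate block edgeR called 0 genes in old monocytes (smallest adjusted p 0.181), 76 in old macrophages and 17 for monocytes minus macrophages.

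Of 2415 values of single genes under other settings, 2336 kept direction and side of the threshold, 34 passed it and 45 changed sign, all 45 in 11 genes. With 1 library left out, Ppp1r15a ran from -0.12 to 0.139, Asns from -0.384 (without ISRIB replicate 5) to 1.24, Eif2ak1 from -0.0355 to 0.0492, Eif2ak2 from -0.109 to 0.0326, Eif2ak3 from -0.101 to 0.077, Hspa5 from -0.0654 to 0.307, Cx3cr1 from -0.151 to 0.0741, Gbp2 from -0.512 (without ISRIB replicate 1) to 0.697, Xcr1 from -0.609 to 0.0155, Clec9a from -0.345 to 0.326 and Zbtb46 from -0.436 to 0.201. With all 39 libraries Eif2ak1 was at 0.00823 and Eif2ak3 at 0.00644. With the replicate block Eif2ak3 was at 0.00365, Gbp2 at -0.0469, Clec9a at 0.194 and Zbtb46 at 0.0169. With voom Eif2ak3 was at 0.0105, Xcr1 at 0.264, Clec9a at 0.344 and Zbtb46 at 0.342. With quality weights Cx3cr1 was at 0.0837, Gbp2 at -0.127, Xcr1 at 0.275, Clec9a at 0.512 and Zbtb46 at 0.504.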
